A study of Homo sapiens with 647 samples.

Results

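The genes described here are 46 components of the human DNA replication machinery, chosen by name, and all 46 were found among the 54592 gene rows of the count table. They were measured by SMART-Seq2 RNA sequencing in T47D, an estrogen receptor positive luminal breast cancer cell line. The count table held 647 libraries from 8 lines: T47D carrying FGF3, wild-type (WT) FGFR2, FGFR2 M538I, FGFR2 N550K, FGFR2 K660N or FGFR1, with a line carrying GFP and the parental line as controls. FGFR1 and FGFR2 are receptor tyrosine kinases for fibroblast growth factors, and FGF3 is one of their ligands. Per the labels, the transgenes were delivered by lentivirus, and cells were treated in plates 48 h after seeding and harvested 24 h later. Whether a transduced line was a pool or a clone was not stated. Every line shares the T47D background, and the GFP and parental lines retain their own endogenous receptors.

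The agents were fulvestrant (Fulv, an estrogen receptor degrader, 100 nM), palbociclib (Palbo, a CDK4/6 inhibitor, 1 µM), FIIN-3 (an FGFR inhibitor, 100 nM), trametinib (Tram, a MEK inhibitor, 500 nM) and FGF2, for which the labels state no dose. The controls received DMSO. The numbers in the library titles run through 2 times, and each run is treated as a set. Set 1 held DMSO, FGF2, FIIN-3 and Fulv arms and their combinations, along with Fulv plus Tram and Fulv plus Palbo, with or without FGF2. Set 2 held the arms with Palbo but no Fulv, FIIN-3 alone, and Fulv plus Palbo with FIIN-3 or Tram. FGF2 was not added to the FGF3 line, and that line's untreated group in set 2 was labelled control. Most groups of line and treatment held 6 libraries (91 groups), with 5 in 17 groups and 4 in 4 groups.

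DNA replication starts in G1, when the origin recognition complex, CDC6 and CDT1 load the MCM2 to MCM7 helicase onto origins, and geminin (GMNN) later blocks CDT1 so that origins are not loaded again. At the start of S phase CDC7 with its activator DBF4, MCM10, CDC45 and the GINS complex turn the loaded helicase into a moving fork, where the clamp PCNA, set in place by the RFC loader, holds the DNA polymerases. Most of these genes are known targets of E2F factors, which the RB protein holds in check until cyclin D with CDK4 or CDK6 phosphorylates it.

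The promoters of 40 of the 46 genes were in the RefSeq promoter table (GRCh38.p14, a later build than the hg19 of the counts). The letters TTTCCCGC, TTTGGCGC, TTTCGCGC or TTTGCCGC, which are forms of the E2F motif, were searched on both strands from 250 bases before to 50 bases after the start. At least 1 of them was present in 22 of the 40 members (55%) and in 1090 of 27305 gene symbols of the whole table (3.99%). TTTCCCGC was found in 11 members, TTTGGCGC in 8, TTTCGCGC in 7 and TTTGCCGC in 0, against 1.98%, 0.795%, 0.63% and 0.725% of all symbols. TTTGGCGC and TTTCGCGC can overlap on opposite strands, as in TTTGGCGCGAAA, and such a stretch counts for both. A match describes these letters and not a bound site. The windows below are shown because the loading genes MCM6, CDT1 and GMNN, the helicase activator GINS2, the clamp PCNA and the methylation reader UHRF1 are members described in the comparisons. Capitals mark the motif on either strand.
MCM6 (chr2:135876497-135876620, minus strand, GRCh38.p14): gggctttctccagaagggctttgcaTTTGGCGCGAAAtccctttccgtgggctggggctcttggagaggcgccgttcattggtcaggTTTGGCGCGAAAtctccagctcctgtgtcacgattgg
CDT1 (chr16:88803729-88803786, plus strand, GRCh38.p14): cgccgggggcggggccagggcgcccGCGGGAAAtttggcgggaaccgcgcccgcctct
GMNN (chr6:24775308-24775365, plus strand, GRCh38.p14): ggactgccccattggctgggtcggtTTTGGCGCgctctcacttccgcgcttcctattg
GINS2 (chr16:85688955-85689010, minus strand, GRCh38.p14): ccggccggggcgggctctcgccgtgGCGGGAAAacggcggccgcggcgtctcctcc
PCNA (chr20:5126649-5126706, minus strand, GRCh38.p14): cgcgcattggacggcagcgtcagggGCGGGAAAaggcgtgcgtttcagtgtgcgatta
UHRF1 (chr19:4909462-4909500, plus strand, GRCh38.p14): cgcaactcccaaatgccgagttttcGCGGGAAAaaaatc

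Total counts per library had a median of 7570052.5 in set 1 (512961 to 13012180) and 2887186 in set 2 (619509 to 4804935), so comparisons were made within a set. In 14 libraries of set 1 and 2 of set 2 the mitochondrial ribosomal RNA MT-RNR2 made up less than 5% of counts, and these are called the libraries with low MT-RNR2. A total under 0.333 of the set's median was found in 20 libraries of set 1, mostly of the FGF3 line, and in 2 of set 2. All 7 luminal breast markers were detected in all 647 libraries (summed level 6760 to 123000 CPM), whereas 7 markers of other cells summed to 14.6 to 98.4 CPM. The T cell marker CD3E and the leukocyte marker PTPRC were at 0 in 586 and 599 libraries, while the stromal markers COL1A1 and ACTA2 were at 0 in none. The transgenes followed the labels. FGFR1 had 58.6 to 874.1 CPM in the FGFR1 line with DMSO, against 3.91 to 9.54 CPM in the GFP line, and FGFR2 had 422.7 to 767.9 CPM in the K660N line, against 9.6 to 21.3 CPM in the GFP line. FGF3 had 70 to 370.02 CPM in the FGF3 line, against 0 to 2.23 CPM in the GFP line.

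With DMSO, the level per unit of transcript length differed widely among the 46 genes. Over 45 libraries of set 1, PCNA stood highest with a median of 8.42 on the log2(TPM + 1) scale (6.42 to 9.03). The flap endonuclease FEN1 followed at 7.98, the polymerase delta subunit POLD2 at 7.83 and GINS2 at 7.79. CDC7, the kinase that fires origins, stood lowest at 1.98 (0.791 to 3.18), with GINS4 at 2.35 and the chromatin assembly subunit CHAF1A at 2.82 next to it. The ranges of neighbours in this order overlapped.

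As a summary over all members, the mean log2 CPM of the 46 genes in a library (the replication score, set 1) was 5.37 ± 0.146 in FGFR1 cells and 5.91 ± 0.102 in K660N cells with DMSO (SD, n = 5 and 6), the lowest and highest of the 8 lines. The GFP line had 5.55 ± 0.311 and the parental line 5.76 ± 0.108 (SD, n = 6 each). With Fulv the score was 5.11 ± 0.162 in FGFR1, 5.27 ± 0.215 in FGFR2 WT, 5.58 ± 0.145 in M538I, 5.76 ± 0.0995 in K660N, 5.88 ± 0.21 in N550K and 5.76 ± 0.099 in FGF3 cells (n = 4 in FGF3, 6 in the others), against 5.31 ± 0.093 in GFP and 5.46 ± 0.0959 in parental cells (n = 6 each). With Fulv plus FGF2 all 7 lines lay between 5.75 and 6.08. With Fulv, Palbo and FGF2 they lay between 3.65 and 3.99, below the means of the other set 1 arms of those lines. The FGF3 line went lower still, to 3.44 ± 0.19 with Fulv plus Palbo (n = 6).

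**Figure D1:**
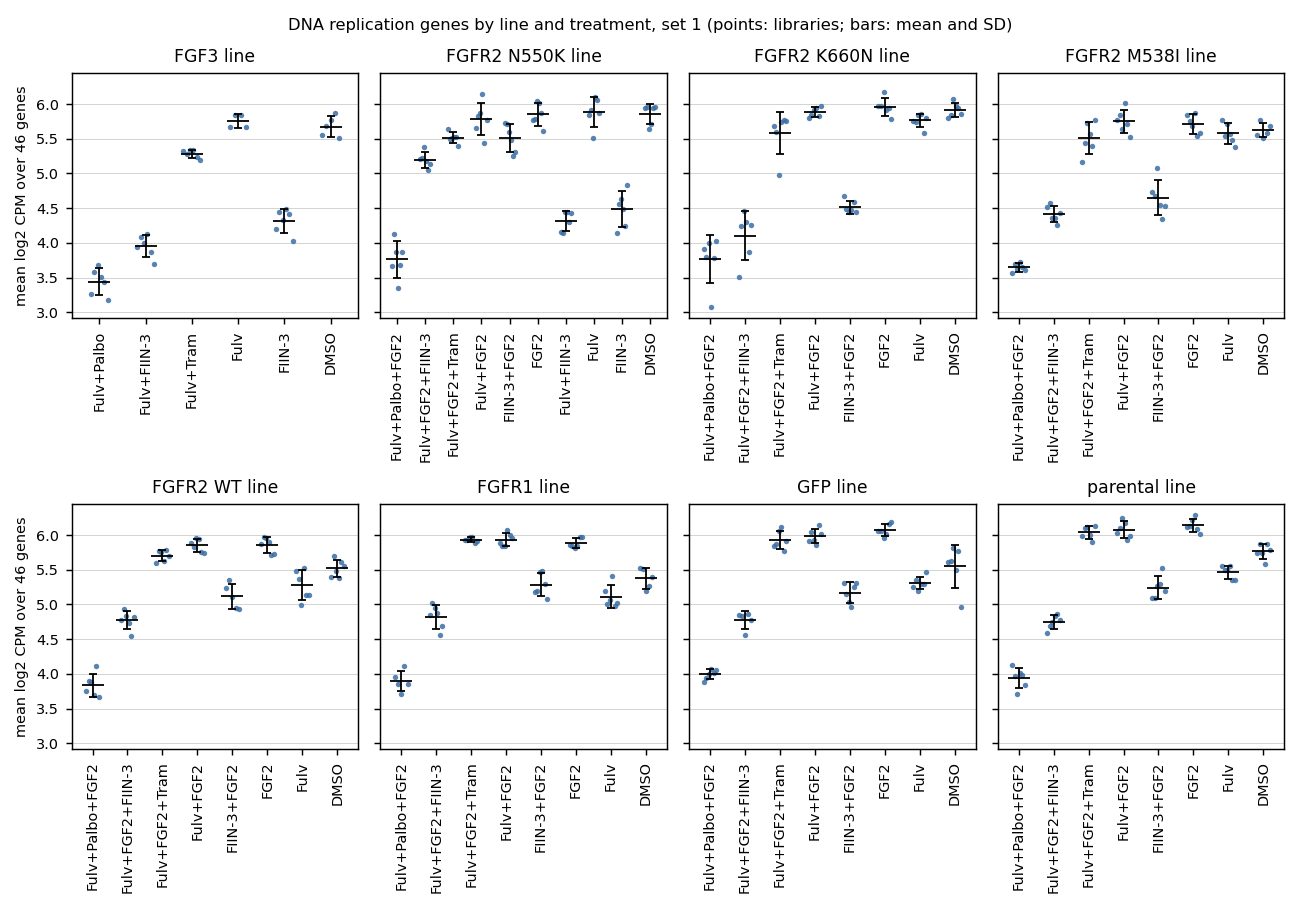
Replication score, the mean log2 CPM of the 46 genes, in each library of set 1, with one panel for each line and treatments along the x axis. Points are libraries and bars show the mean ± SD; the arms with Palbo lie at the bottom of every panel that holds them, between 3.44 and 3.99 on average, and FIIN-3 arms lie higher in N550K cells with FGF2 (5.2 and 5.51) than in K660N cells with FGF2 (4.11 and 4.52).

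Fulvestrant without added ligand called few of the 46 genes. All p-values for genes given here are adjusted by the Benjamini-Hochberg method from edgeR's quasi-likelihood test over all genes tested. In the control lines (GFP and parental, 12 libraries an arm) 0 members were higher and 2 lower with Fulv than with DMSO, while 0.454% of all genes were called higher and 1.08% lower. GINS2 had 180.3 to 326.8 CPM (median 204.6) with Fulv, against 181.8 to 586.1 CPM (median 314.4) with DMSO. It fell by 0.71 ± 0.17 on the log2 scale (SE, adjusted p = 0.0272). The 586.1 CPM was that of the GFP library with low MT-RNR2, and the fall is given with that library included. The primase subunit PRIM1, which starts each new strand with an RNA primer, had 30.7 to 58.3 CPM (median 40.8) with Fulv, against 35.2 to 83.6 CPM (median 58.1) with DMSO (log2 fold change −0.50 ± 0.13, adjusted p = 0.048). Both pairs of arms overlapped. The median of the 46 log2 fold changes was −0.35, against −0.02 for all genes, and 30 members had an unadjusted p under 0.05. Leaving out the DMSO library with low MT-RNR2 brought the count to 11.

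In the FGFR1 line, 0 members were called either way by edgeR (9 at an unadjusted p under 0.05, 0 by DESeq2), with 0% of genes higher and 0.0791% lower. Without the DMSO library with low MT-RNR2 the count was also 0. With the ranges of title numbers as a replicate block, 2 members were called. In the FGF3 line 0 members were called (1 at an unadjusted p under 0.05, 0 by DESeq2), as were 0% of all genes in either direction. In the 4 FGFR2 lines 0 members were higher and 5 lower, with 1.19% of genes called higher and 2.02% lower, and 4 were lower without the libraries with low MT-RNR2. CDT1 had 20.2 to 49.9 CPM (median 27.3) with Fulv, against 25 to 55.4 CPM (median 34.7) with DMSO (−0.36 ± 0.09, adjusted p = 0.0147). GINS2 had 215.5 to 1052.2 CPM (median 283.5) with Fulv, against 233.7 to 1450.8 CPM (median 380.3) with DMSO (−0.72 ± 0.19, adjusted p = 0.0295), or −0.34 without the libraries with low MT-RNR2.

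Adding FGF2 to fulvestrant raised nearly the whole group in the lines without a receptor transgene. In the control lines 42 of 46 members were higher and 0 lower with Fulv plus FGF2 than with Fulv, while 7.34% of all genes were called higher and 5.06% lower, and the members' median was 0.65 against −0.02 for all genes. All 11 loading factors, all 8 activation factors, all 6 clamp genes and all 4 genes of chromatin and methylation copying rose, and 8 of 9 polymerase genes did. POLD2, RPA2, RPA3 and TIPIN were not called. CDC6 had 77.1 to 133.8 CPM (median 104.5) with Fulv plus FGF2, against 43.4 to 74.5 CPM (median 59.9) with Fulv, with no overlap between the arms (0.77 ± 0.10, adjusted p = 1.73e-06). MCM10, which helps to activate the helicase, had 29.1 to 58.3 CPM (median 48.8) with Fulv plus FGF2, against 14.5 to 31.6 CPM (median 23.6) with Fulv (0.94 ± 0.12, adjusted p = 9.87e-07). PCNA had 242.5 to 340.6 CPM (median 291.5) with Fulv plus FGF2, against 153.7 to 306.8 CPM (median 184.1) with Fulv (0.56 ± 0.10, adjusted p = 0.000115). MCM6, given here because its promoter window is shown above, had 60.9 to 115.4 CPM (median 95.4) with Fulv plus FGF2, against 40.9 to 72.2 CPM (median 59.7) with Fulv (0.63 ± 0.10, adjusted p = 4.78e-05). For MCM10, PCNA and MCM6 the highest Fulv library reached into the range of the FGF2 arm. MCM2 rose by 0.62 ± 0.13 (adjusted p = 0.00134) and GMNN by 0.55 ± 0.14 (adjusted p = 0.00653). In bulk libraries, fewer cells with a transcript and less of it per cell cannot be told apart.

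In the FGFR1 line the same addition gave 35 members higher and 0 lower (12.7% of genes higher, 14% lower), with a median of 0.76. MCM10 had 39.4 to 60 CPM (median 46.2) with Fulv plus FGF2, against 9.36 to 24.2 CPM (median 15.5) with Fulv (1.59 ± 0.20, adjusted p = 2.43e-05). CDC6 had 80.2 to 134.3 CPM (median 104.02) with Fulv plus FGF2, against 32.8 to 54 CPM (median 41.4) with Fulv (1.26 ± 0.16, adjusted p = 2.54e-05). POLA2, a subunit of the priming polymerase alpha, had 83.4 to 117.7 CPM (median 109.5) with Fulv plus FGF2, against 33.5 to 61.9 CPM (median 43.6) with Fulv (1.2 ± 0.14, adjusted p = 1.38e-05). The arms of these 3 genes did not overlap. PCNA had a log2 fold change of 0.37 ± 0.19 (adjusted p = 0.16) and GMNN of 0.49 ± 0.20 (adjusted p = 0.0821).

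Over the 4 FGFR2 lines together 14 members were higher and 0 lower (18.7% of genes higher, 19.3% lower), so the members' share lay only moderately above that of all genes, and their median was 0.18. MCM10 had 24.6 to 70.3 CPM (median 44) with Fulv plus FGF2, against 4.75 to 52.7 CPM (median 25.1) with Fulv (0.58 ± 0.14, adjusted p = 0.000633), and CDC6 rose by 0.35 ± 0.11 (adjusted p = 0.0113). The arms overlapped widely. In the FGFR2 WT line 13 members were higher and 0 lower (7.47% of genes higher, 7.54% lower). There CDC45, which joins the helicase to the GINS complex, had 51.2 to 55.1 CPM (median 53.2) with Fulv plus FGF2, against 18 to 33.6 CPM (median 25.9) with Fulv (0.97 ± 0.15, adjusted p = 0.00099). Without the WT library with low MT-RNR2, 21 members were called.

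In the 3 lines with a mutant FGFR2, the main edgeR fit called 0 members after FGF2 was added to Fulv. With the ranges of title numbers as a replicate block, edgeR called 7 in M538I cells and 1 in K660N cells. Without the libraries with low MT-RNR2 it called 1 in N550K cells. The M538I line had 6 members at an unadjusted p under 0.05 and 2 called by DESeq2 (4.71% of genes higher, 4.38% lower). The N550K line had 1 at an unadjusted p under 0.05 and 0 by DESeq2 (0.257% of genes higher, 0.0962% lower), and the K660N line had 7 and 1 (0.888% of genes higher, 0.983% lower). CDC6 had 60.9 to 128.9 CPM (median 101.05) with Fulv plus FGF2, against 42.8 to 112.4 CPM (median 95.3) with Fulv, in N550K cells, and 72.5 to 100.6 CPM (median 89.3), against 79.4 to 105.8 CPM (median 87.5), in K660N cells. The medians of CDC6 with Fulv alone in these 2 lines lay above that of the control lines with Fulv (59.9 CPM) and below that of the control lines with Fulv plus FGF2 (104.5 CPM).

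The difference between line classes was tested itself. The log2 change with FGF2 on Fulv in the 4 FGFR2 lines minus that in the control lines was called below 0 for 16 members and above 0 for 0 (1.49% of genes above, 1.89% below), and the 46 differences had a median of −0.45. POLD3, a polymerase delta subunit, had 15.9 to 37.3 CPM (median 23.3) with Fulv plus FGF2, against 12.6 to 40 CPM (median 24.2) with Fulv, in the FGFR2 lines. In the control lines POLD3 had 26 to 44.7 CPM (median 35.3) with Fulv plus FGF2, against 15.2 to 28.2 CPM (median 21) with Fulv, and the difference was −0.77 ± 0.14 (adjusted p = 0.000329). For PCNA the difference was −0.74 ± 0.16 (adjusted p = 0.00196), with 144.2 to 304.6 CPM with Fulv plus FGF2, against 169.8 to 567.7 CPM with Fulv, in the FGFR2 lines. Without the libraries with low MT-RNR2 22 members differed, and with no filter on low counts 9 did.

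FGF2 added to DMSO gave fewer calls than FGF2 added to Fulv in the control lines (15 higher, against 42 higher). The shares of all genes called higher there were 3.8% and 7.34%. The FGFR1 line gave 18 higher and 1 lower, against 35 higher (14.4% of genes higher and 17.3% lower, against 12.7% and 14%). The 4 FGFR2 lines gave 15 higher and 7 lower, against 14 higher (22.9% of genes higher and 26.5% lower, against 18.7% and 19.3%). Without the libraries with low MT-RNR2, FGF2 added to DMSO gave 8 calls in the FGFR2 lines. The DMSO arms held 8 of the libraries with low MT-RNR2. In those 8 libraries RPA3, the small subunit of the single-strand binding protein, had a lowest level of 427.2 CPM and a median of 911.3 CPM, against a lowest of 41.2 CPM and a median of 117.8 CPM in the other 37 DMSO libraries. GINS2 had 586.1 to 1450.8 CPM (median 885.9) in them, against 181.8 to 510.6 CPM (median 335.3) in the rest. GMNN had 126.1 to 350.96 CPM (median 238.4), against 49.3 to 169.2 CPM (median 89.2), and CDC6 had 21.6 to 56.6 CPM (median 36.2), against 48.9 to 119.5 CPM (median 81.2). The members thus stood apart in both directions in these libraries, and counts for the comparisons whose DMSO arms hold them are given with and without the libraries with low MT-RNR2.

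The control lines had 15 members higher and 0 lower with FGF2 than with DMSO (3.8% of genes higher, 2.56% lower), or 24 without the library with low MT-RNR2. GINS1, a GINS subunit, had 19.7 to 40.3 CPM (median 34.1) with FGF2, against 5.58 to 23.2 CPM (median 18.2) with DMSO (0.82 ± 0.16, adjusted p = 0.00132). DBF4 had 16.2 to 36.4 CPM (median 28.5) with FGF2, against 8.35 to 22 CPM (median 16.7) with DMSO (0.81 ± 0.14, adjusted p = 0.000346). Both pairs of arms overlapped at their edges. MCM2 (0.26 ± 0.16, adjusted p = 0.339) and PCNA (0.34 ± 0.13, adjusted p = 0.117) did not pass the test.

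FGFR1 cells had 18 members higher and 1 lower with FGF2 (14.4% of genes higher, 17.3% lower), and 24 were higher and 0 lower without DMSO replicate 3, which has low MT-RNR2. Leaving out DMSO replicate 4 or FGF2 replicate 2, 5 or 6 left 12 called. MCM10 had 35.8 to 62.7 CPM (median 55.6) with FGF2, against 29.4, 23.7, 21.6, 22.2 and 22.2 CPM in the 5 DMSO libraries, all of them below the FGF2 arm (1.12 ± 0.18, adjusted p = 0.000952). The member called lower was RPA3, with 84.6 to 176.03 CPM (median 101.9) with FGF2, against 122.2, 106.5, 1145.4, 182.6 and 177.7 CPM with DMSO (−1.72 ± 0.56, adjusted p = 0.0301). Its value was −0.40 and not called without DMSO replicate 3, which holds the 1145.4 CPM.

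In the 4 FGFR2 lines 15 members were higher and 7 lower with FGF2 (22.9% of genes higher, 26.5% lower). Without the libraries with low MT-RNR2, 7 were higher and 1 lower. The log2 fold change of RPA3 was −1.27 ± 0.28 (adjusted p = 0.000241) with all libraries and −0.16 without them, that of GINS2 was −0.68 ± 0.17 (adjusted p = 0.00128) and −0.10, and that of GMNN was −0.67 ± 0.17 (adjusted p = 0.00129) and −0.13. PCNA was called in both of these fits, with −0.63 ± 0.13 (adjusted p = 0.000133) for all libraries and −0.30 without them. MCM10 was also called in both, with 0.50 ± 0.11 (adjusted p = 0.000172) and 0.40. With the ranges of title numbers as a replicate block, 2 members were called, and PCNA and MCM10 were not among them. Between the FGFR2 and the control lines the change with FGF2 differed for 4 members, all below 0 (1.01% of genes above, 1.15% below). They were GMNN (−1.08 ± 0.27, adjusted p = 0.0164), PCNA (−0.98 ± 0.21, adjusted p = 0.00321), the clamp loader gene RFC4 (−0.86 ± 0.19, adjusted p = 0.00604) and the polymerase epsilon gene POLE2 (−0.66 ± 0.17, adjusted p = 0.0245). Without the libraries with low MT-RNR2 6 members differed, and the differences of these 4 were −0.60, −0.59, −0.47 and −0.64.

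The lines were also set against the GFP line under the same treatment, and all these comparisons share its libraries. With Fulv, 24 members were higher and 2 lower in the FGF3 line than in the GFP line (12.4% of genes higher, 15.4% lower). UHRF1, which recruits the maintenance methyltransferase DNMT1 to newly copied DNA, had 80.2, 72.7, 54.2 and 68.4 CPM in FGF3 cells, against 9.13 to 30.4 CPM (median 20.7) in GFP cells (1.85 ± 0.27, adjusted p = 7.01e-05). MCM5, a helicase subunit, had 191.2, 196.8, 178.5 and 241.7 CPM in FGF3 cells, against 63 to 97.5 CPM (median 87.7) in GFP cells (1.28 ± 0.16, adjusted p = 1.37e-05). MCM2 had 230.6, 263.1, 196.4 and 320.97 CPM in FGF3 cells, against 62.5 to 151.5 CPM (median 105.2) in GFP cells (1.21 ± 0.21, adjusted p = 0.000325). All 4 FGF3 libraries lay above all 6 GFP libraries for these genes. PCNA (−0.05 ± 0.18, adjusted p = 0.851) and GMNN (−0.34 ± 0.23, adjusted p = 0.29) did not pass the test, so MCM2, MCM5 and UHRF1 were higher while no difference of the clamp was detectable.

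K660N cells with Fulv had 17 members higher and 0 lower than GFP cells (7.34% of genes higher, 6.93% lower). CDC6 had 79.4 to 105.8 CPM (median 87.5) in K660N cells, against 43.4 to 72.3 CPM (median 59.6) in GFP cells, with no overlap (0.64 ± 0.14, adjusted p = 0.00485). N550K cells with Fulv had 10 members higher and 0 lower (4.41% of genes higher, 2.7% lower), and 33 without the N550K library with low MT-RNR2. DNMT1 had 76.1 to 102.2 CPM (median 87.9) in N550K cells, against 43.5 to 61.1 CPM (median 51.8) in GFP cells, again with no overlap (0.77 ± 0.15, adjusted p = 0.00587). With edgeR, 0 members were called in the FGFR1 line (3 at an unadjusted p under 0.05, 0.00796% of genes higher and 0.0159% lower), the FGFR2 WT line (3, with 0.00787% of genes in each direction) and the M538I line (13, with 0.518% higher and 0.383% lower), and DESeq2 called 0 in each of these. With the ranges of title numbers as a replicate block, edgeR called 8 in the M538I line.

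With DMSO, edgeR and DESeq2 called 0 members in N550K cells against GFP cells (10 at an unadjusted p under 0.05, 0.954% of genes higher and 0.644% lower), and edgeR called 2 higher without the libraries with low MT-RNR2. The count was also 0 with both tools in K660N cells (9 at an unadjusted p under 0.05, 0.923% of genes higher and 0.591% lower), and 0 with edgeR without the GFP library with low MT-RNR2. In the FGF3 line 2 members were higher and 0 lower (3.24% of genes higher, 3.94% lower), so the share called higher lay near that of all genes. MCM5 had 201.8, 170.8, 238.6, 241.9 and 177.4 CPM in FGF3 cells, against 29.3 to 126.7 CPM (median 99.6) in GFP cells (1.24 ± 0.29, adjusted p = 0.0213), and the DNA ligase LIG1 had 74.1, 88.9, 71.7, 73.3 and 62.2 CPM, against 12 to 49.3 CPM (median 45.9) (0.98 ± 0.28, adjusted p = 0.0481). This count moved with single libraries. It was 12 without GFP replicate 6, which has low MT-RNR2, 0 without GFP replicate 4 or FGF3 replicate 3 or 4, and 1 without GFP replicate 1 or 5 or FGF3 replicate 1, 2 or 5. As 4 of the 5 FGF3 libraries were of low depth, a fit without them would rest on 1 FGF3 library.

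With FGF2 present, FIIN-3 lowered members in every line class, with the fewest calls in the N550K line. In the WT, M538I and K660N FGFR2 lines all 46 members were lower with FIIN-3 plus FGF2 than with FGF2, while 27.7% of all genes were called lower and 27.6% higher, and the members' median was −1.05 against −0.01 for all genes. CDC45 had 6.77 to 30.9 CPM (median 13) with FIIN-3 plus FGF2, against 40.8 to 65.9 CPM (median 54.1) with FGF2, and the arms did not overlap (−1.91 ± 0.13, adjusted p = 4.84e-16). MCM10 had 5.18 to 27.4 CPM (median 9.88) with FIIN-3 plus FGF2, against 22 to 66 CPM (median 48) with FGF2 (−2.07 ± 0.17, adjusted p = 1.42e-13). ORC1, the largest subunit of the origin recognition complex, had 1.59 to 10.4 CPM (median 4.63) with FIIN-3 plus FGF2, against 5.35 to 23.2 CPM (median 16.9) with FGF2 (−1.72 ± 0.20, adjusted p = 2.2e-09). The highest FIIN-3 libraries of MCM10 and ORC1 reached into the FGF2 range. By role the medians, given with no test, were −1.30 for activation, −1.19 for chromatin and methylation copying, −1.06 for loading, −1.03 for polymerases, −0.88 for fork protection, −0.86 for the clamp and −0.56 for lagging strand and single-strand binding genes. PCNA fell by 0.85 ± 0.11 (adjusted p = 8.74e-09) and GMNN by 0.93 ± 0.11 (adjusted p = 2.49e-09).

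The control lines, which carry no receptor transgene, gave 45 members lower and 0 higher with FIIN-3 plus FGF2 (12.8% of genes lower, 12.8% higher), and POLD2 was the member not called. DBF4 had 8.18 to 12.6 CPM (median 10) with FIIN-3 plus FGF2, against 16.2 to 36.4 CPM (median 28.5) with FGF2 (−1.47 ± 0.11, adjusted p = 3e-11). PCNA had 113.8 to 221.9 CPM (median 177.3) with FIIN-3 plus FGF2, against 227.98 to 422.1 CPM (median 301.8) with FGF2 (−0.86 ± 0.11, adjusted p = 5.67e-07). Neither pair of arms overlapped. FGFR1 cells had 30 members lower and 0 higher (15.2% of genes lower, 16.2% higher), with MCM10 at 13.3 to 32.8 CPM (median 18.5) with FIIN-3 plus FGF2, against 35.8 to 62.7 CPM (median 55.6) with FGF2 (−1.28 ± 0.22, adjusted p = 0.00028). PCNA in the FGFR1 line had a log2 fold change of −0.10 ± 0.15 (adjusted p = 0.631).

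In the N550K line 7 members were lower and 0 higher with FIIN-3 plus FGF2 (4.2% of genes lower, 4.36% higher). MCM10 had 20 to 29.7 CPM (median 24.3) with FIIN-3 plus FGF2, against 32.5 to 53.7 CPM (median 45) with FGF2, with no overlap (−0.82 ± 0.16, adjusted p = 0.00429). CDC45 had 28.4 to 47.7 CPM (median 35.9) with FIIN-3 plus FGF2, against 42.6 to 58.2 CPM (median 52.3) with FGF2 (−0.52 ± 0.14, adjusted p = 0.0264). The N550K CDC45 levels with FIIN-3 lay mostly above those of the other FGFR2 lines under the same treatment. The fall in the N550K line was tested against that in the WT, M538I and K660N lines, and the difference was above 0 for 16 members and below 0 for 0 (1.8% of genes above, 0.414% below), with a median of 0.75. Those 3 lines differed among themselves, with changes of the replication score from −1.44 to −0.742, against −0.34 in N550K cells. A difference from the WT line alone was not tested. CDC45 differed by 1.41 ± 0.22 (adjusted p = 2.68e-05), GINS2 by 1.11 ± 0.21 (adjusted p = 0.000454), DBF4 by 0.97 ± 0.19 (adjusted p = 0.00104) and PCNA by 0.75 ± 0.21 (adjusted p = 0.0337). CDC6 (0.89 ± 0.27, adjusted p = 0.0716) and MCM2 (0.84 ± 0.30, adjusted p = 0.181) missed the threshold. The ERK feedback gene DUSP6, whose level follows ERK signalling, differed in the same direction (3.11 ± 0.28, adjusted p = 4.95e-11).

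**Figure D2:**
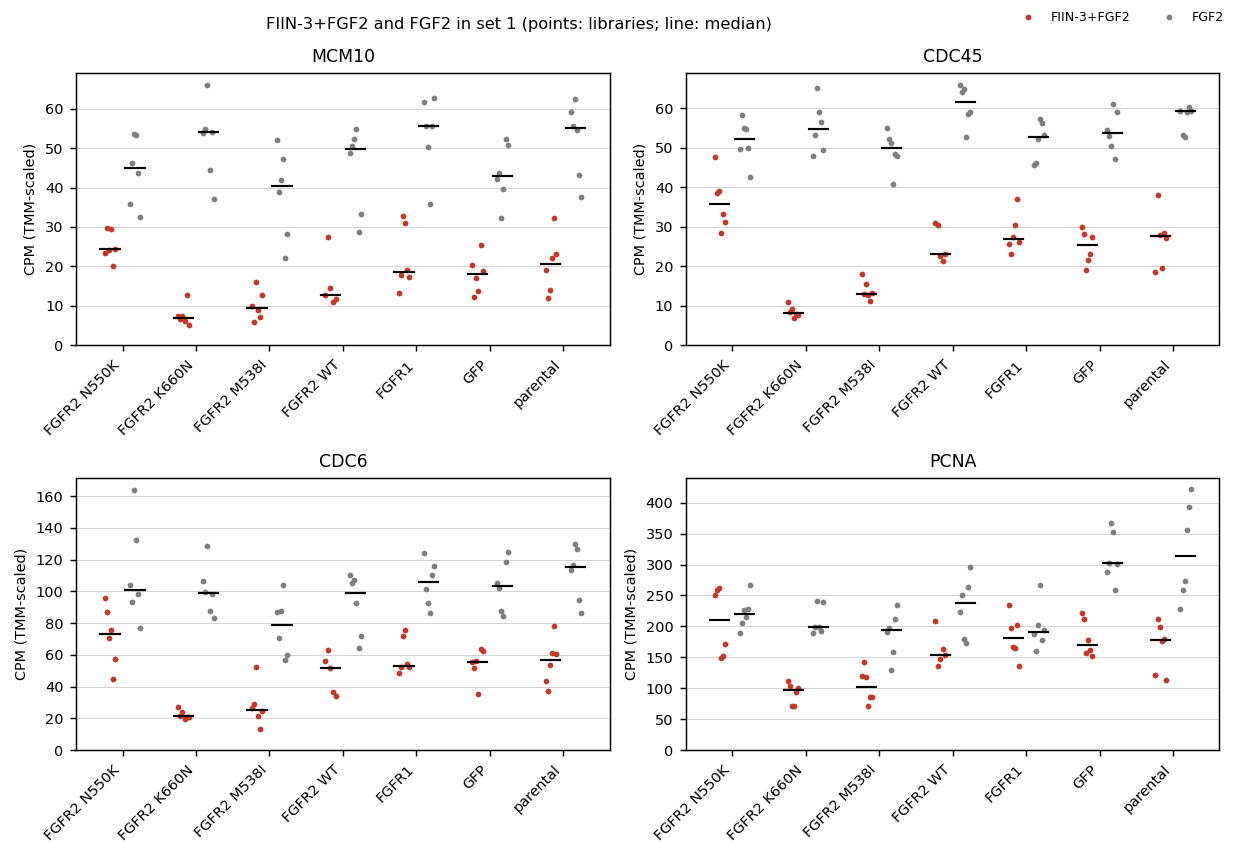
MCM10, CDC45, CDC6 and PCNA in CPM by library in set 1, with FIIN-3 plus FGF2 (red, left) and FGF2 (grey, right) for 7 lines; the short line is the median. With FIIN-3 plus FGF2 CDC45 had a median of 35.9 CPM in N550K cells and 8.13 CPM in K660N cells.

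The same inhibitor was also given with fulvestrant and FGF2 together. In the WT, M538I and K660N lines 45 members were lower and 0 higher with Fulv, FGF2 and FIIN-3 than with Fulv plus FGF2 (27.5% of genes lower, 28.7% higher), with a median of −1.35. RPA3 was not called. CLSPN, the claspin gene of the fork protection group, had 0 to 9.88 CPM (median 4.12) with FIIN-3, against 13.7 to 42 CPM (median 25.1) without it (−2.45 ± 0.16, adjusted p = 2.12e-16). CDC45 had 3.11 to 17.6 CPM (median 9.71) with FIIN-3, against 38.9 to 67 CPM (median 51.7) without it (−2.28 ± 0.11, adjusted p = 1.41e-20). GMNN had 22.8 to 59.5 CPM (median 36.7) with FIIN-3, against 69.9 to 141.1 CPM (median 92.2) without it (−1.25 ± 0.09, adjusted p = 1.74e-14). None of these arms overlapped.

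FGFR1 cells had 43 members lower and 0 higher (15.1% of genes lower, 14.7% higher), and RFC1, RPA2 and RPA3 were not called. CDC45 had 9.39 to 22.7 CPM (median 16.2) with FIIN-3, against 50.4 to 64.8 CPM (median 58.6) without it (−1.75 ± 0.18, adjusted p = 1.06e-06). In the N550K line 22 members were lower and 0 higher (8.02% of genes lower, 9.39% higher), with a median of −0.52. MCM2 there had 67.7 to 118.4 CPM (median 80.9) with FIIN-3, against 99.5 to 214.7 CPM (median 181.6) without it (−0.96 ± 0.17, adjusted p = 0.00041). PCNA (−0.24 ± 0.15, adjusted p = 0.281) and GMNN (−0.21 ± 0.17, adjusted p = 0.431) did not pass the test in N550K cells. The difference between lines in this setting was not tested.

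In N550K cells members were higher with FGF2 while FIIN-3 was present. With Fulv, FGF2 and FIIN-3, 33 members were higher and 0 lower than with Fulv plus FIIN-3 (18.5% of genes higher, 15.1% lower), with a median of 0.85. GMNN had 50.7 to 89.9 CPM (median 79.3) with FGF2, against 16.2 to 26.2 CPM (median 23.2) without it (1.72 ± 0.16, adjusted p = 2.79e-08). CDC6 had 39.9 to 64.2 CPM (median 50.7) with FGF2, against 14.1 to 21.9 CPM (median 18.9) without it (1.5 ± 0.16, adjusted p = 1.29e-07), and PCNA rose by 1.17 ± 0.14 (adjusted p = 6.24e-07). The arms of all 3 genes did not overlap. Without any ligand, FIIN-3 alone against DMSO in N550K cells of set 1 gave 38 members lower and 0 higher (15.9% of genes lower, 9.8% higher), and 46 lower without the 2 DMSO libraries with low MT-RNR2. CLSPN had 0 to 7.35 CPM (median 2.63) with FIIN-3, against 25.1 to 76.8 CPM (median 30.5) with DMSO, and was called lower. Its fold is not given, because its level with FIIN-3 was low and reached 0. CLSPN also stood higher in the DMSO libraries of set 1 with low MT-RNR2 (43.7 to 76.8 CPM) than in the rest (11.3 to 40.1 CPM). GMNN had 13.8 to 31.5 CPM (median 26.5) with FIIN-3, against 87 to 350.96 CPM (median 110.05) with DMSO (−2.81 ± 0.40, adjusted p = 0.000409), or −1.96 without those libraries.

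Under FIIN-3 without added ligand the lines differed in set 2, where each line is set against the same 6 GFP libraries under FIIN-3. These are differences between lines under FIIN-3 and not responses to it, as only the FGF3 line has an untreated group in set 2. There the FGF3 line, which makes its own ligand, had 36 members lower and 0 higher than GFP cells (7.71% of genes lower, 6% higher). N550K cells had 35 lower and 0 higher of 45 tested (5.62% of genes lower, 5.44% higher), K660N cells 26 and 0 (3.72% of genes lower, 3.06% higher) and M538I cells 19 and 0 (2.68% of genes lower, 3.48% higher). With edgeR 0 members were called in FGFR2 WT cells (6 at an unadjusted p under 0.05 and 1 by DESeq2, 0.111% of genes lower and 0.923% higher) and in FGFR1 cells (3 and 0, 0% of genes lower and 0.00956% higher). CDC6 had 25.5, 26.1, 25.2, 19.1 and 21.6 CPM in FGF3 cells, against 60.7 to 105.3 CPM (median 77.1) in GFP cells (−1.74 ± 0.15, adjusted p = 3.43e-10). In N550K cells CDC6 had 17 to 37.4 CPM (median 25.2; −1.61 ± 0.15, adjusted p = 1.12e-09), in K660N cells 20.1 to 34.5 CPM (median 26; −1.62 ± 0.16, adjusted p = 2.28e-08) and in M538I cells 38.4 to 55 CPM (median 48.9; −0.73 ± 0.12, adjusted p = 0.000255). None of these 4 ranges reached the GFP range, and the M538I range lay between GFP and the other 3.

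PCNA was also lower, with 73.8, 57, 77.3, 67.6 and 66.6 CPM in FGF3 cells (−0.94 ± 0.10, adjusted p = 7.25e-08) and 58.5 to 86.6 CPM (median 72) in N550K cells (−0.85 ± 0.11, adjusted p = 5.22e-07), against 121.9 to 149.5 CPM (median 131.8) in GFP cells. The score was 4.48 ± 0.0565 in FGF3, 4.53 ± 0.0938 in N550K, 4.66 ± 0.106 in K660N and 4.98 ± 0.0891 in M538I cells, against 5.43 ± 0.0938 in GFP cells (SD, n = 5 in FGF3 and 6 in the others). FGFR2 WT (5.32 ± 0.094) and FGFR1 cells (5.37 ± 0.126) stood near the GFP and parental lines. N550K cells thus lay low under FIIN-3 without FGF2, whereas with FGF2 they had the highest score of the 7 lines under FIIN-3 (5.51 ± 0.2 in set 1, n = 6).

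**Figure D3:**
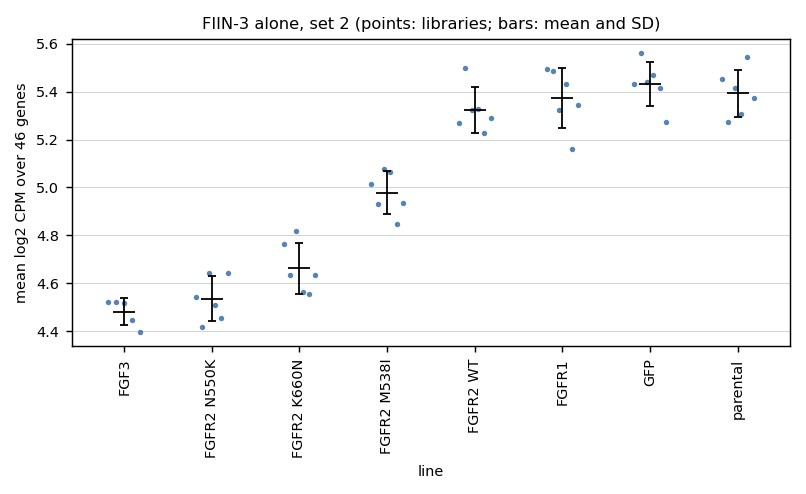
Replication score under FIIN-3 alone in set 2 by line, with points for libraries and bars for the mean ± SD. FGF3, N550K and K660N cells average 4.48 to 4.66, M538I cells 4.98, and the FGFR2 WT, FGFR1, GFP and parental lines 5.32 to 5.43.

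Within the FGF3 line, FIIN-3 added to Fulv gave 43 members lower and 0 higher (7.79% of genes lower, 5.34% higher), with a median of −1.69. UHRF1 had 1.25 to 14.9 CPM (median 6.75) with Fulv plus FIIN-3, against 80.2, 72.7, 54.2 and 68.4 CPM with Fulv (−3.33 ± 0.28, adjusted p = 2.58e-08). CDC45 had 5.84 to 9.47 CPM (median 7.32) with Fulv plus FIIN-3, against 49.8, 59.6, 47 and 67.1 CPM with Fulv (−2.90 ± 0.21, adjusted p = 1.92e-09). PCNA had 48.2 to 92.1 CPM (median 62.4) with Fulv plus FIIN-3, against 177.7, 209.2, 198.7 and 187.4 CPM with Fulv (−1.56 ± 0.15, adjusted p = 1.49e-07). The arms of these genes were well apart. RFC1, RPA3 and TIPIN were not called, and 3 of the 6 Fulv plus FIIN-3 libraries and 1 of the 4 Fulv libraries were of low depth. In set 2, FIIN-3 against the group labelled control gave 39 members lower and 0 higher (4.23% of genes lower, 2.49% higher). MCM10 had 8.34, 5.62, 6.72, 10.2 and 7.21 CPM with FIIN-3, against 41.2 to 87.9 CPM (median 57.2) in the control group (−2.92 ± 0.26, adjusted p = 9.25e-06).

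Trametinib, which acts below the receptor on MEK, left most of the group near its level with Fulv plus FGF2. The control lines had 4 members higher and 10 lower with Tram added (13.1% of genes higher, 15.3% lower), and the members' median was −0.07. DBF4 had 11.1 to 20.1 CPM (median 17.1) with Tram, against 11.2 to 36.8 CPM (median 23.4) without it (−0.56 ± 0.13, adjusted p = 0.00195). LIG1, which seals the lagging strand, had 40.5 to 57.1 CPM (median 49.7) with Tram, against 53.6 to 88 CPM (median 65.4) without it (−0.43 ± 0.08, adjusted p = 6.44e-05). CDC6 had 88.9 to 149.9 CPM (median 119.9) with Tram, against 77.1 to 133.8 CPM (median 104.5) without it (0.24 ± 0.09, adjusted p = 0.0382). The arms of DBF4, LIG1 and CDC6 overlapped. The share of members called higher lay below that of all genes, and the share called lower lay above it. With no filter on low counts 8 members were called. The log2 fold changes of the members ran from −0.56 for DBF4 to 0.32 for TIPIN. In the same libraries DUSP6 fell by 3.94 ± 0.20 (adjusted p = 3.92e-16), and 16 of 20 mitosis genes were lower with a median of −0.54.

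FGFR1 cells had 1 member higher and 1 lower with Tram (5.48% of genes higher, 5.83% lower). These were POLD3 (0.51 ± 0.15, adjusted p = 0.0336) and DNMT1 (−0.34 ± 0.11, adjusted p = 0.0463). In the 4 FGFR2 lines 0 members were higher and 11 lower (16.1% of genes higher, 14.1% lower), or 17 lower without the library with low MT-RNR2 (K660N replicate 3 of the Tram arm). DBF4 had 2.59 to 19.5 CPM (median 14.4) with Tram, against 12.6 to 34.6 CPM (median 25.5) without it (−0.75 ± 0.11, adjusted p = 5.54e-07). DNMT1 had 44.4 to 77.6 CPM (median 63.4) with Tram, against 69.5 to 111.8 CPM (median 82.7) without it (−0.39 ± 0.06, adjusted p = 3.87e-07). MCM2 (−0.04 ± 0.11, adjusted p = 0.835), CDC6 (−0.16 ± 0.09, adjusted p = 0.182) and PCNA (−0.12 ± 0.09, adjusted p = 0.335) did not pass the test.

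In the FGF3 line Tram added to Fulv gave 21 members lower and 0 higher (4.44% of genes lower, 2.99% higher), with a median of −0.53. LIG1 had 35.4 to 43.2 CPM (median 39.6) with Fulv plus Tram, against 72.9, 78.7, 77.1 and 88.2 CPM with Fulv (−1.03 ± 0.13, adjusted p = 3.79e-05). MCM3, another helicase subunit, had 211.1 to 248.5 CPM (median 217.3) with Fulv plus Tram, against 358.2, 368.1, 366.3 and 364.5 CPM with Fulv (−0.73 ± 0.11, adjusted p = 0.000131). Neither pair of arms overlapped. The count was 8 without Fulv replicate 2, the library of low depth, 13 without Fulv replicate 1, and 10 without Tram replicate 2 or 6.

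Trametinib and FIIN-3 were compared directly on the same background of Fulv plus FGF2. In the control lines all 46 members were higher with Tram than with FIIN-3 (22.2% of genes higher, 22.1% lower), with a median of 1.1. CDC45 had 47.4 to 72.7 CPM (median 58.3) with Tram, against 6.92 to 16.2 CPM (median 12) with FIIN-3 (2.35 ± 0.11, adjusted p = 6.02e-17). MCM10 had 43 to 64.8 CPM (median 53.3) with Tram, against 4.45 to 16.2 CPM (median 10.2) with FIIN-3 (2.32 ± 0.15, adjusted p = 5.17e-14). PCNA had 179.5 to 316.9 CPM (median 243.1) with Tram, against 77.8 to 159.4 CPM (median 107.6) with FIIN-3 (1.12 ± 0.10, adjusted p = 5.84e-11). The arms were apart for all 3, while DUSP6 was lower with Tram than with FIIN-3 (−1.21 ± 0.27, adjusted p = 0.000497).

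In the FGFR1 line 43 members were higher and 0 lower with Tram than with FIIN-3 (13.6% of genes higher, 16.4% lower), and in the WT, M538I and K660N lines 45 were higher and 0 lower (26.6% of genes higher, 21.7% lower). In those 3 FGFR2 lines MCM10 had 23.3 to 58.5 CPM (median 39) with Tram, against 2.97 to 13.6 CPM (median 7.78) with FIIN-3 (2.39 ± 0.15, adjusted p = 1.75e-16). In the N550K line 10 were higher and 0 lower (6.75% of genes higher, 5.81% lower), or 1 called with the ranges of title numbers as a replicate block. MCM2 had 111.2 to 169.7 CPM (median 149.9) with Tram, against 67.7 to 118.4 CPM (median 80.9) with FIIN-3 (0.79 ± 0.15, adjusted p = 0.00114), and PCNA had 144.6 to 220.3 CPM (median 181.7), against 132.3 to 218.6 CPM (median 166.3) (0.08 ± 0.14, adjusted p = 0.763). In the FGF3 line with Fulv, 40 members were higher and 0 lower with Tram than with FIIN-3 (9.02% of genes higher, 8.21% lower). MCM2 had 153.5 to 213.8 CPM (median 191.1) with Fulv plus Tram, against 40.4 to 67.1 CPM (median 53.7) with Fulv plus FIIN-3 (1.72 ± 0.14, adjusted p = 9.64e-09).

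Palbociclib added to Fulv plus FGF2 lowered nearly every member in each line class. In the control lines all 46 members were lower (13.9% of genes lower, 13.4% higher), with a median of −1.95 against 0.05 for all genes. CDC45 had 1.52 to 5.04 CPM (median 3.26) with Palbo, against 40.8 to 59.5 CPM (median 51.1) without it (−3.99 ± 0.14, adjusted p = 7.42e-21). CDC6 had 8.02 to 17.5 CPM (median 12.6) with Palbo, against 77.1 to 133.8 CPM (median 104.5) without it (−3.0 ± 0.12, adjusted p = 5.73e-20). These arms were far apart. MCM10 had 0 to 1.66 CPM (median 0.931) with Palbo, against 29.1 to 58.3 CPM (median 48.8) without it. It was also called lower, but it passed the filter on low counts through the arm without Palbo, and its fold is not given because its level with Palbo was near 0. PCNA had 41.9 to 73.5 CPM (median 52.5) with Palbo, against 242.5 to 340.6 CPM (median 291.5) without it (−2.46 ± 0.09, adjusted p = 6.88e-21). GMNN fell by 2.47 ± 0.11 (adjusted p = 1.49e-18) and MCM2 by 2.63 ± 0.17 (adjusted p = 2.44e-14).

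By role, the median log2 change with Palbo in the control lines, given with no test, was −2.47 for loading factors, −2.12 for activation factors, −2.05 for chromatin and methylation copying, −1.88 for fork protection, −1.62 for the clamp, −1.54 for polymerases and −1.03 for lagging strand and single-strand binding genes. The smallest fall, named after its value was seen, was that of POLD2, with 149.98 to 260.97 CPM (median 182.8) with Palbo, against 192.01 to 402.6 CPM (median 269.4) without it (−0.51 ± 0.11, adjusted p = 0.000383). RFC1, RPA1 and RPA2 were next, also named after their values were seen, at −0.54, −0.61 and −0.66. Members with a motif in the promoter window had a median of −2.12 (22 genes) and those without one −1.85 (18 genes), which is a description with no test.

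FGFR1 cells had 45 members lower and 0 higher with Palbo (8.32% of genes lower, 4.37% higher), and POLD2 was not called. CDC45 had 5.13, 3.6, 5.26, 6.14 and 3.82 CPM with Palbo, against 50.4 to 64.8 CPM (median 58.6) without it (−3.60 ± 0.17, adjusted p = 5.03e-11). In the 4 FGFR2 lines all 46 were lower (17.6% of genes lower, 20.2% higher), with a median of −1.88. PCNA there had 21.7 to 76.2 CPM (median 40.1) with Palbo, against 144.2 to 304.6 CPM (median 202.9) without it (−2.37 ± 0.10, adjusted p = 1.67e-26). The difference between the FGFR2 and the control lines was called for 0 members by edgeR (3 at an unadjusted p under 0.05, 0 by DESeq2), with 0.0808% of genes above and 0.0147% below. The median of the 46 differences was 0.03. DUSP6 moved the other way, with a rise of 0.71 ± 0.11 (adjusted p = 4.33e-06) in the control lines.

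**Figure D4:**
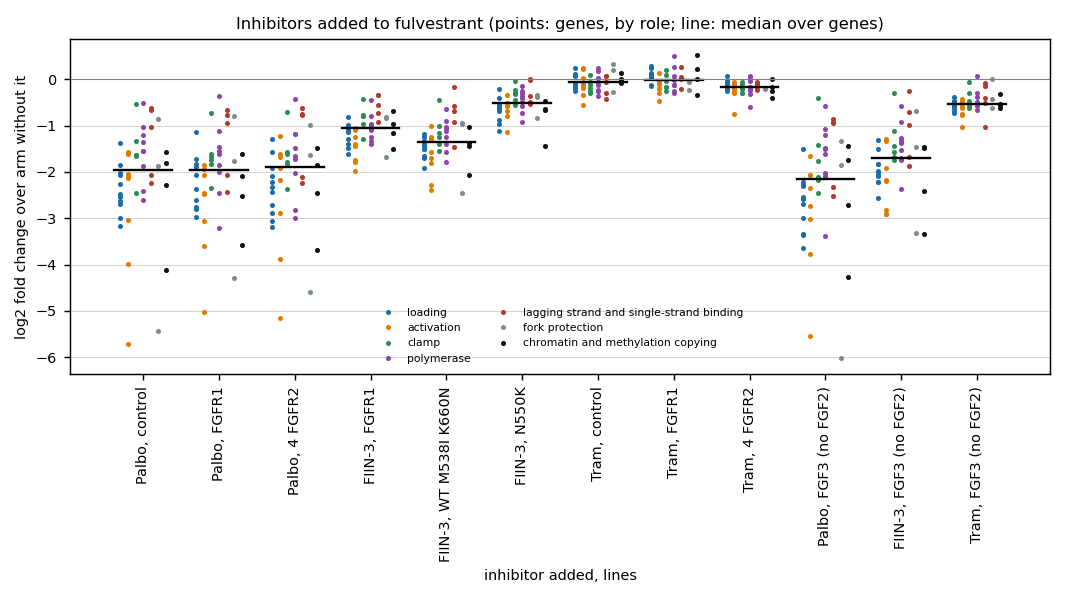
Log2 fold changes of the 46 genes, grouped by role, when Palbo, FIIN-3 or Tram was added to Fulv plus FGF2 (to Fulv in the FGF3 line), with one point for each gene and a line at the median. Palbo points lie lowest (medians −1.88 to −2.15), FIIN-3 points lie near −0.52 in N550K cells and between −1.06 and −1.69 in the other lines shown, and Tram points lie near 0 except in the FGF3 line (−0.53).

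The FGF3 line gave 45 members lower and 0 higher with Fulv plus Palbo than with Fulv (5.56% of genes lower, 1.47% higher), with a median of −2.15, and RFC1 was not called. PCNA had 27 to 48.1 CPM (median 34.5) with Fulv plus Palbo, against 177.7, 209.2, 198.7 and 187.4 CPM with Fulv (−2.45 ± 0.16, adjusted p = 7.51e-12). CDC6 had 4.71 to 10.3 CPM (median 6.93) with Fulv plus Palbo, against 66.7, 80.2, 87.8 and 61.9 CPM with Fulv (−3.35 ± 0.22, adjusted p = 7.51e-12). In set 2, Palbo alone against the control group of this line gave 43 of 45 members lower and 0 higher (4.8% of genes lower, 1.73% higher). PCNA had 32.5 to 51.7 CPM (median 39.8) with Palbo, against 168.7 to 416.1 CPM (median 207.3) in the control group (−2.57 ± 0.24, adjusted p = 9.33e-07). The arms did not overlap in either set.

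With palbociclib present the remaining levels were low, and ORC1, CDT1, MCM10, GINS4 and CLSPN had too few counts to be tested in most comparisons. A fold change under Palbo therefore covers only the members that passed the filter on low counts. With Palbo plus FGF2 against Palbo in the control lines, 2 of 40 members were higher and 0 lower (0.801% of genes higher, 0.317% lower), or 5 called without the parental library with low MT-RNR2. ORC6, an origin recognition subunit, had 5.24 to 12.4 CPM (median 9.45) with Palbo plus FGF2, against 2.57 to 6.33 CPM (median 3.63) with Palbo. It was called higher, but it passed the filter on low counts mainly through the arm with FGF2. Its fold is not given because its level with Palbo alone was low. MCM2 rose by 0.63 ± 0.15 (adjusted p = 0.0485). In the FGFR1 line 8 of 41 were higher and 0 lower (12.9% of genes higher, 11.9% lower). ORC6 was among those called, at 8.99 to 16.7 CPM (median 10.3) with Palbo plus FGF2, against 1.84 to 8.79 CPM (median 4.2) with Palbo. The fold of ORC6 is again not given, because its level with Palbo alone was low.

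In the 4 FGFR2 lines 4 of 40 members were higher and 9 lower (19% of genes higher, 21.4% lower). The share of members called higher lay below that of all genes, and the share called lower lay near it. CDC6 had 11 to 25.6 CPM (median 17.6) with Palbo plus FGF2, against 7.15 to 22.2 CPM (median 13.4) with Palbo (0.37 ± 0.11, adjusted p = 0.00466), and PRIM1 had 2.12 to 8.57 CPM (median 5.56), against 5.13 to 20.5 CPM (median 9.35) (−0.80 ± 0.16, adjusted p = 4.01e-05). PCNA fell by 0.24 ± 0.09 (adjusted p = 0.0213). These genes moved in both directions, with levels that overlapped for each of them.

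FIIN-3 added to Palbo plus FGF2 gave 3 of 38 members higher and 17 lower in the WT, M538I and K660N lines (26.4% of genes higher, 25.5% lower). CDC6 had 3.11 to 12.4 CPM (median 7.27) with FIIN-3, against 11 to 25.6 CPM (median 18.7) without it (−1.34 ± 0.15, adjusted p = 1.05e-10). ORC6 had 0 to 7.23 CPM (median 4.15) with FIIN-3, against 2.56 to 20.7 CPM (median 9.76) without it, and was called lower. Its fold is not given because its level with FIIN-3 was low and reached 0. PRIM1 went the other way, with 4.34 to 20.2 CPM (median 9.65) with FIIN-3, against 2.12 to 8.22 CPM (median 5.35) without it (0.94 ± 0.18, adjusted p = 1.08e-05). PCNA had a log2 fold change of 0.01 ± 0.08 (adjusted p = 0.922). The loading genes CDC6 and ORC6 were thus lower, while no change of PCNA was detectable.

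In the N550K line 0 of 37 members were higher and 5 lower (9.71% of genes higher, 11.2% lower), so the share called lower lay near that of all genes. CDC6 had 6.67 to 10.7 CPM (median 9.6) with FIIN-3, against 14.9, 15.2, 14.4, 14 and 12.7 CPM without it (−0.65 ± 0.23, adjusted p = 0.0425). The count there was 0 without replicate 3 of the arm without FIIN-3, 1 without replicate 2 of that arm or replicate 4 of the FIIN-3 arm, and 2 without replicate 3 of the FIIN-3 arm. With Fulv, Palbo and FGF2, Tram against FIIN-3 gave 16 of 39 members higher and 1 lower in the control lines (19.9% of genes higher, 20.3% lower). ORC6 had 6.78 to 16.2 CPM (median 10.4) with Tram, against 1.03 to 4.07 CPM (median 2.84) with FIIN-3. It was called higher, but it passed the filter on low counts through the Tram arm. Its fold is not given because its level with FIIN-3 was low. In the FGFR1 and 4 FGFR2 lines 18 of 40 were higher and 3 lower (29.2% of genes higher, 30.8% lower), with CDC6 at 8.32 to 29.8 CPM (median 16.9) with Tram, against 1.29 to 10.7 CPM (median 6.16) with FIIN-3 (1.54 ± 0.14, adjusted p = 7.03e-16).

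**Figure D5:**
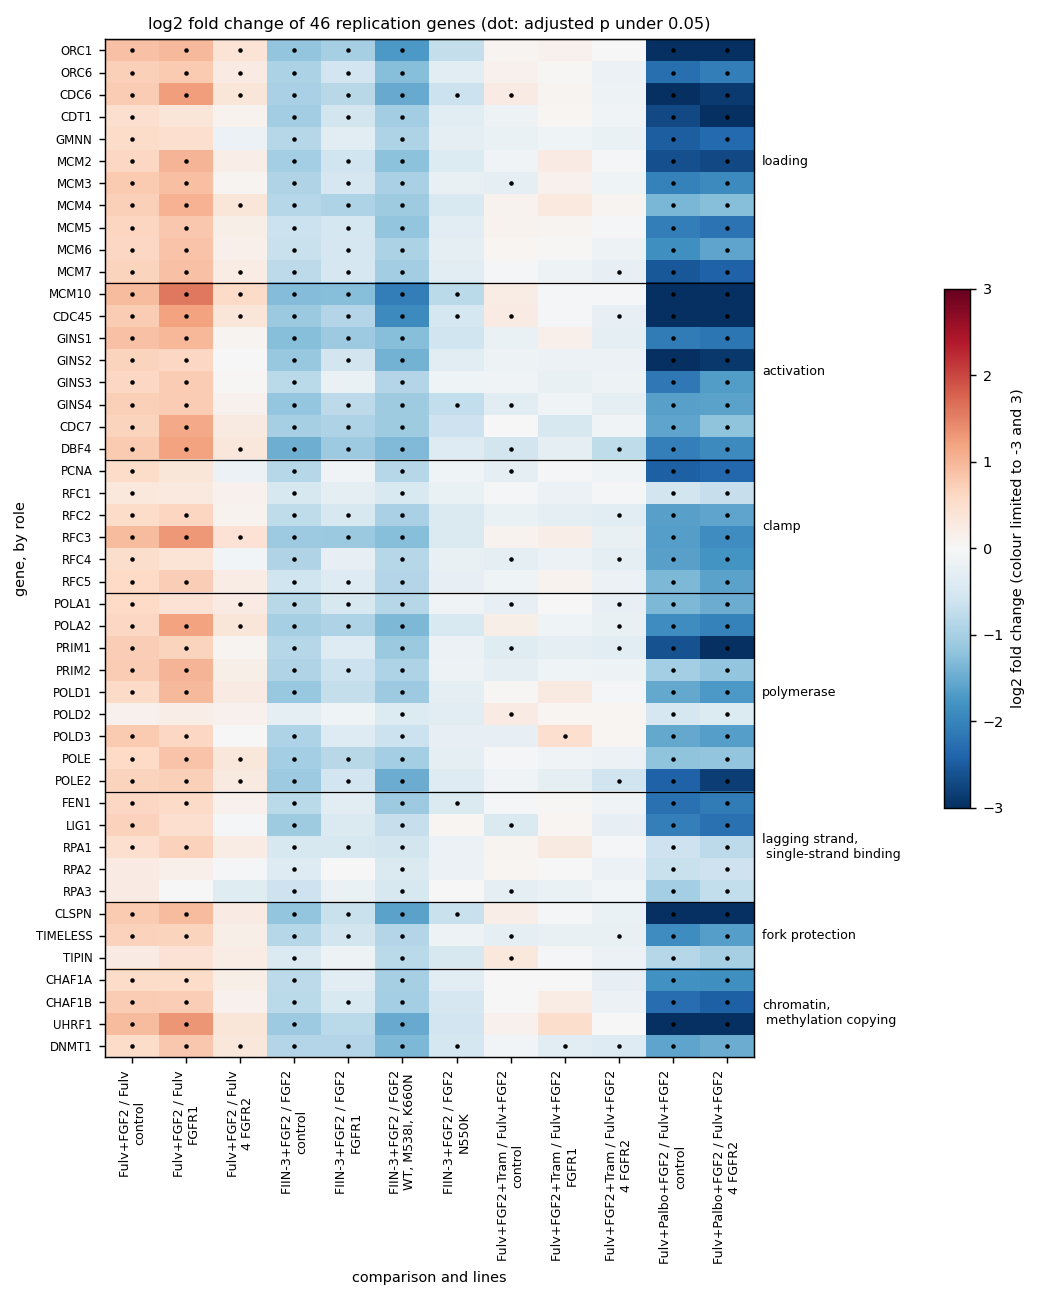
Log2 fold changes of the 46 genes (rows, grouped by role) in 12 comparisons (columns), with the colour limited to −3 to 3 and a dot where the adjusted p was under 0.05. Both Palbo columns are dotted in all 46 rows, and the FIIN-3 column of the N550K line in 7 rows.

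Other genes of the same processes were read from lists of 24 further replication genes and 20 mitosis genes. With Fulv plus FGF2 against Fulv in the control lines, 13 of 24 further replication genes were higher and 0 lower (median 0.53). All 20 mitosis genes were higher (median 1.02), while 7.34% of all genes were called higher and 5.06% lower. With FIIN-3 plus FGF2 against FGF2, 18 of 24 and all 20 were lower in the WT, M538I and K660N lines (medians −1.01 and −1.75). There 27.7% of all genes were called lower. In the N550K line 1 of 24 and 4 of 20 were lower (medians −0.28 and −0.43), against 4.2% of all genes. The 1 of 24 thus lay near the share of all genes. With Palbo added to Fulv plus FGF2 in the control lines, 17 of 24 were lower and 1 higher (median −1.19). All 20 mitosis genes were lower (median −3.95), while 13.9% of all genes were called lower and 13.4% higher. With Tram added to Fulv plus FGF2 in the 4 FGFR2 lines, 10 of 24 and all 20 were lower (medians −0.26 and −0.71). The median over the 46 members was −0.18, and 14.1% of all genes were called lower.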

How the data were processed

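RNA was measured by SMART-Seq2 in 647 T47D libraries. The deposited count table holds whole-number read counts per gene, not normalized, and reads were aligned with STAR to hg19 per the submitters' processing notes, which name no version. The authors also deposited log2(TPM + 1) values, used only for levels per transcript length. The sources used here state neither how reads were counted nor whether strand was used. CPM are counts scaled to library size.

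Counts were tested with edgeR 4.0.16 in R 4.3.3 (quasi-likelihood, TMM scaling, genes kept by a minimum count of 10, Benjamini-Hochberg adjustment at 0.05 over all genes tested). Each fit used the libraries of its own comparison, with line as a term where lines were pooled, and differences between line classes were interaction terms. The standard error is the log2 fold change divided by the square root of F. The script was tested on simulated data. The replication score uses log2 CPM with a prior count of 2. DESeq2 1.42.0, other scalings, no filter, the ranges of 96 title numbers as a replicate block, and fits without libraries were alternatives.

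The members and lists were chosen with earlier results of these data known. Members named with a fold change are up to 8 with the largest change among those called, plus MCM2, CDC6, PCNA and GMNN; the ERK feedback genes, including DUSP6, and the comparisons of trametinib with FIIN-3, of lines with GFP at Fulv or FIIN-3 and within single FGFR2 lines were added after values were seen, as were those within N550K with and without FGF2 or FIIN-3. The labels name no separate cultures, so p-values measure the spread between these libraries, which may be technical. No pair of libraries held identical values (0 pairs). Whether title ranges pair libraries was checked by the correlation of deviations from group means: in 33 comparisons 113 of 152 pairs were over 0.1, and all pairs were over 0.1 in 5 of the comparisons with 3 or more pairs, the number set for this check, and in 6 with 2 pairs. The 5 were FGF2 over DMSO in control lines, Fulv over DMSO in the FGFR1 line, FIIN-3 with FGF2 in the WT, M538I and K660N lines, and FIIN-3 or Tram on Fulv in the FGF3 line. Totals per library set the counting precision, and no share or floor is quoted.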

Additional observations from a re-analysis of the deposited data

Results flagged for a closer look

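In 6 groups of line and treatment, of all groups of 4 to 6 libraries, 1 library's replication score lay far from the rest of its group, and chance marks about 1 in 20 groups. K660N replicate 3 with Fulv, FGF2 and Tram had a score of 4.98, against 5.6 to 5.77 in the others of that group. K660N replicate 4 with Fulv, Palbo and FGF2 had 3.08, against 3.79 to 4.03. Replicate 3 of the FGF3 control group in set 2 had 5.4, against 5.91 to 6.02. All 3 had low MT-RNR2 and low depth, whose part in the values was not tested. Parental replicate 4 with Palbo in set 2 had 3.42, against 3.84 to 3.97, and low MT-RNR2. GFP replicate 3 with Fulv, FGF2 and FIIN-3 had 4.55, against 4.78 to 4.86, and WT replicate 2 with FIIN-3 in set 2 had 5.5, against 5.23 to 5.33.

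Tested differences between line classes gave 4 members for FGF2 over DMSO and 16 for FGF2 on Fulv (4 FGFR2 lines minus control lines), and 16 for FIIN-3 with FGF2 (N550K minus the WT, M538I and K660N lines).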

How the results depend on the processing

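Over all alternatives 71 counts of members called (17%) moved by over 1.5 times, and 21 score differences (7%) moved by over 1 SD. Of the single-gene values 3675 (94%) kept direction and side of the threshold, 4.4% lost their call, 40 gained one and 25 turned sign, none of these called. The cause was not tested. Counts below are of members called under the alternative, with the main count after "against".

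DESeq2's test gave 6 against 2 for FGF3 over GFP with DMSO, 16 against 10 for N550K over GFP with Fulv, 1 against 0 for WT over GFP with FIIN-3, 8 against 5 for Fulv over DMSO in the FGFR2 lines, 5 against 2 in the control lines, 1 against 0 and 2 against 0 for FGF2 on Fulv in K660N and M538I cells, and 4 against 2 for FGF2 on Palbo in the control lines. DESeq2's size factors gave 1 against 2 for Fulv over DMSO in the control lines, and 1 against 0 for FGF2 on Fulv in both K660N and M538I cells. No filter gave 1 against 0 for K660N over GFP with DMSO, WT over GFP with FIIN-3, Fulv over DMSO in the FGF3 line and FGF2 on Fulv in K660N and in M538I cells, 2 against 5 and 2 against 0 for Fulv over DMSO in the FGFR2 and FGFR1 lines, 7 against 11 and 8 against 14 for Tram in the FGFR2 and control lines, 6 against 13 and 5 against 2 for FGF2 on Palbo in the same, and 9 against 16 for the difference in FGF2 on Fulv.

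With the replicate block the count was 2 against 22 for FGF2 over DMSO in the FGFR2 lines (PCNA and MCM10 not among the 2), 30 against 17, 8 against 0 and 17 against 10 for K660N, M538I and N550K over GFP with Fulv, 2 against 0 for WT over GFP with FIIN-3, 14 against 7 for FIIN-3 with FGF2 in N550K cells, 13 against 5, 2 against 0 and 6 against 2 for Fulv over DMSO in the FGFR2, FGFR1 and control lines, 1 against 0 and 7 against 0 for FGF2 on Fulv in K660N and M538I cells, 1 against 10 for Tram over FIIN-3 in N550K cells, 0 against 2 for Tram in FGFR1 cells, and 13 against 4 and 30 against 16 for the differences in FGF2 over DMSO and in FIIN-3. Pair correlations ran from −0.471 to 0.907 (median 0.276), and title ranges were not taken as pairing outside the 5 comparisons named under processing. In those 5 the block moved no other count by over 1.5 times. The arms are not spread evenly over the ranges. For example, the last range of set 1 holds parental FGF2 libraries but no parental DMSO libraries, while another range holds both. The labels do not say what a range is, and differences between ranges cannot be fully told apart from treatment.

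Without libraries of low depth the count was 0 against 2 for FGF3 over GFP with DMSO, where 1 FGF3 library was left and assumed to vary like the GFP libraries, and 8 against 21 for Tram in the FGF3 line, and FGF3 score differences were −0.144 against 0.0822 for Fulv (1 DMSO library left), −1.66 against −1.81 for FIIN-3 on Fulv and −2.14 against −2.32 for Palbo on Fulv. Without libraries with low MT-RNR2 it was 8 against 22 and 24 against 15 for FGF2 over DMSO in the FGFR2 and control lines, 12 against 2 and 2 against 0 for FGF3 and N550K over GFP with DMSO, 33 against 10 for N550K over GFP with Fulv, 11 against 2 for Fulv in the control lines, 1 against 0 and 21 against 13 for FGF2 on Fulv in N550K and WT cells, 17 against 11 for Tram in the FGFR2 lines, and 5 against 2 for FGF2 on Palbo in the control lines.

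Score differences as medians over members were 0.642 for FGF2 in FGFR1 cells, 0.672 for FGF3 over GFP with Fulv, −1.12 for FIIN-3 over DMSO and 0.702 for FGF2 on Fulv plus FIIN-3 in N550K cells, −0.0699 for Tram in FGFR1 cells (main 0.00216), −0.561 for Tram in the FGF3 line, 0.22 for FGF2 on Palbo in FGFR1 cells and −0.0482 for FIIN-3 on Palbo plus FGF2 in N550K cells. Without TMM they were 0.302 and 0.76 for FGF2 in the FGFR2 and FGFR1 lines, 0.458 and 0.69 for FGF3 over GFP with DMSO and Fulv, 0.632 for K660N over GFP with Fulv, −1.16 for FIIN-3 over DMSO in N550K cells, −0.734 and −2.17 for FIIN-3 with FGF2 and Palbo in FGFR1 cells, −0.588 for Tram in the FGF3 line and 0.376 for FGF2 on Palbo in the control lines.

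Leaving out 1 library at a time, counts and score differences ran from 12 to 24 and 0.467 to 0.548 for FGF2 in FGFR1 cells, 0 to 0 and −0.321 to −0.226 for Fulv in FGFR1 cells, 0 to 0 and 0.0403 to 0.132 for Fulv in FGF3 cells, 45 to 46 and −2.09 to −1.99 for Palbo in FGFR1 cells, 0 to 7 and −0.234 to −0.168 for FIIN-3 on Palbo plus FGF2 in N550K cells, and, in the FGF3 line, 40 to 43 and −1.84 to −1.76 for FIIN-3 on Fulv, 8 to 23 and −0.502 to −0.443 for Tram, 42 to 45 and −2.37 to −2.26 for Palbo on Fulv, 35 to 43 and −1.49 to −1.37 for FIIN-3 over control, and, over GFP, 0 to 12 and 0.0114 to 0.184 with DMSO, 33 to 38 and −0.983 to −0.925 with FIIN-3, 20 to 25 and 0.42 to 0.482 with Fulv.

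The log2 values that turned sign under the block were, for FGF2 on Fulv, CDC6 −0.1464 in N550K cells, GMNN 0.1513, 0.0807, 0.1618 and 0.001165 in the FGFR2 lines together and K660N, M538I and N550K cells, MCM2 0.03408 and −0.06135 in K660N and M538I cells, and PCNA 0.01166 and 0.1358 in the FGFR2 lines together and K660N cells. For Tram in FGFR1 cells they were CDC6 −0.02817, GMNN 0.005562 and PCNA 0.06517, and for FGF3 over GFP with DMSO PCNA 0.003163. With no filter GMNN was 0.0004775 for Tram over FIIN-3 in N550K cells, MCM2 0.008137 for FGF2 on Palbo in the FGFR2 lines (0.006973 without low depth) and PCNA −0.001633 for FIIN-3 on Palbo plus FGF2 in 3 FGFR2 lines. Without low MT-RNR2 CDC6 was −0.04389 for FGF2 on Fulv in N550K cells and PCNA 0.001827 for FGF2 on Palbo in the control lines. Leaving out 1 library at a time, CDC6 ran from −0.2057 to 0.01131 for Fulv in FGF3 cells, GMNN from −0.08768 to 0.2103 for FIIN-3 on Palbo plus FGF2 in N550K cells, and PCNA from −0.1635 to 0.03791 and −0.1193 to 0.08996 for FGF3 over GFP with DMSO and Fulv.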
